A study of Axonopus compressus with 6 samples.

Results

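Aluminium ions, which dissolve in acid soils, bind to the cell walls and membranes of the root tip and stop root elongation. Grasses are known to answer with the release of malate or citrate through transporters of the ALMT and MATE families and with changes in cell wall and transport genes, many of them under transcription factors of the STOP1 and ART1 kind. Other transcripts are lower in roots under aluminium. The strongest falls among features above a minimum level in control carpetgrass roots are described here. They comprise 175 of 108674 assembled features, taken from the table of all 6 root libraries.

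The features were selected on the same RPKM values (reads per 1000 bases of feature and per 1000000 reads of the library) that describe them. Each had a control mean of at least 5 RPKM, an aluminium mean of at most 0.45 times the control mean, a highest aluminium value below the lowest control value, and a mean over the 6 libraries under 250 RPKM. Their fall is therefore a description and carries no test. The ratio alone set the number: of 22954 features with a control mean of 5 RPKM or more, 175 had a ratio of 0.45 or less, and neither the condition on overlap nor the limit of 250 RPKM removed any of them.

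The libraries came from roots of Axonopus compressus, a warm-season turf grass, of the single accession A58. Seedlings with roots of about 5 cm stood for 24 h with 0 μM aluminium (control, 3 libraries) or 100 μM aluminium (3 libraries). The labels name neither the plants nor a batch for any library, so aluminium and any difference in handling between the groups cannot be told apart. Whole roots were sampled, and fewer cells of a type and less RNA per cell cannot be told apart in such samples.

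The 6 libraries had totals, calculated from the RPKM, of 32544238 to 35204519 reads. Pearson's r of log2(RPKM + 0.5) across features was 0.970 to 0.980 within groups and 0.942 to 0.949 between control and aluminium libraries. The table pairs its identifiers with no gene name, function or sequence, so what the features encode is not known here and no sequence is printed. An identifier has the form that the Trinity assembler gives: the DN and c numbers name a component, a cluster of contigs that share sequence, and the g number a gene-level feature within it. Defining markers of root cells could not be looked up for the same reason.

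Most of the 175 features fell by between 2.2 and 3 times and kept a clear signal in aluminium-treated roots. Their median aluminium to control ratio was 0.389 (25th to 75th percentile 0.339 to 0.420), a 2.57-fold fall. Of the 175, 39 were at least 3-fold lower and 8 at least 4-fold lower, while 78 lay between ratios of 0.40 and 0.45. The median mean level was 9.75 RPKM in control libraries (25th to 75th percentile 6.89 to 18.4) and 3.61 RPKM in aluminium libraries (2.35 to 6.97). Of the features, 64 stayed at 5 RPKM or more in aluminium and 3 were under 1 RPKM. Reads were found in all 6 libraries for 174 of the 175.

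The ratios had no gap at the threshold. The features just inside it had ratios of 0.4487 and 0.4489, and those just outside 0.4507 and 0.4516. From 0.45 to 0.50 there were 145 further features, and from 0.50 to 0.55 there were 274. The control minimum was also a point on a continuum, with members at 5.01 and 5.04 RPKM and features that met the other conditions at 4.95 and 4.97 RPKM. Among features under 5 RPKM in control, which are the 108674 features less the 22954, 3014 had a ratio of 0.45 or less without overlap. With a control minimum of 1 RPKM the rule gave 815 features in all. Most of the 3014 therefore lay under 1 RPKM in control, at low read numbers. The 175 features were 0.771% of the 22703 features that met both conditions on level. With the groups exchanged, the same rule gave 565 features higher in aluminium, 2.45% of 23088.

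**Figure D1:**
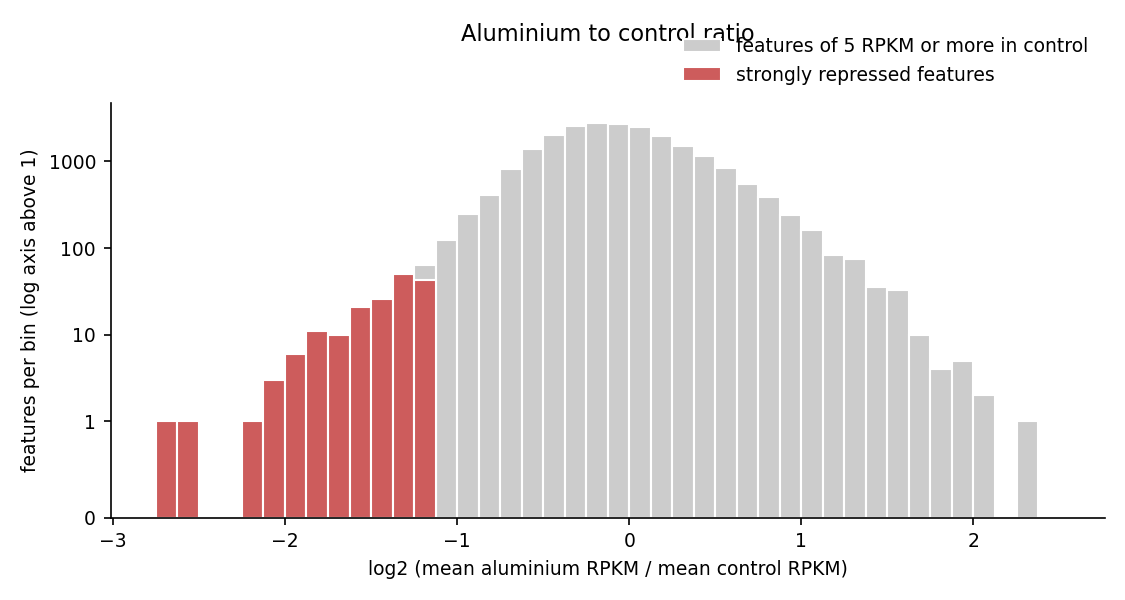
Number of features (vertical axis, logarithmic above 1) by log2 of the aluminium to control ratio of mean RPKM, for the 22703 features of 5 RPKM or more in control and under 250 RPKM overall (grey) and the 175 strongly repressed features (red). The red bars form the left tail without a break from the grey ones, and 2 members lie left of the plotted range.

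Together the 175 features held a small share of the reads. They took 0.327, 0.338 and 0.330% of the total in control libraries 1, 2 and 3, a mean of 0.332 ± 0.0062% (SD, n = 3). In aluminium libraries 1, 2 and 3 they took 0.130, 0.136 and 0.128%, a mean of 0.131 ± 0.0045% (SD, n = 3). The 15 members of 50 RPKM or more in control supplied 43.6% of the members' control reads, and the 90 members under 10 RPKM supplied 13.7%. Falls of 3-fold or more were found in 19 of those 90 weaker members and in 2 of the 15 most abundant ones. Between them they were found in 14 of 43 members at 10 to 20 RPKM and 4 of 27 at 20 to 50 RPKM. These are shares of members, which the rule chose by the same ratio, so no trend with level is read from them.

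The feature with the lowest ratio owed its place to a single library. TRINITY_DN27210_c0_g1, of 834 bases and alone in its component, stood at 0.365, 22.5 and 0.221 RPKM in control libraries 1, 2 and 3, and at 0.107, 0 and 0 RPKM in aluminium libraries 1, 2 and 3. Control library 2 held 624 of its 640 control reads (97.5%), and the other control libraries had 10 and 6 reads against 3 reads over the 3 aluminium libraries. Its ratio of mean RPKM was 0.00464. On pooled reads the ratio was 0.00448, with a counting interval of 0.000921 to 0.0131 (95%, exact Clopper-Pearson). That interval leaves out the spread between libraries and the choice of this feature for its low ratio. Without control library 2 its control mean was 0.293 RPKM and it no longer met the rule.

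The next lowest ratio came with close agreement between libraries. TRINITY_DN33249_c0_g3, of 755 bases, gave 13.2, 11.2 and 10.3 RPKM in the control libraries and 0.789, 0.752 and 0.844 RPKM in the aluminium libraries. The lowest control value was more than 10 times the highest aluminium value, from 252 to 329 reads against 20 to 22. The group means were 11.6 ± 1.53 and 0.795 ± 0.0463 RPKM (SD, n = 3 each), 14.5-fold apart.

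A second member of the same component, TRINITY_DN33249_c0_g1, fell less. It measured 4.59, 6.26 and 8.67 RPKM in control and 2.21, 2.76 and 1.62 RPKM in aluminium libraries, a ratio of 0.338 against 0.0688 for its neighbour. The control libraries spread widely for this feature, with library 3 the highest. Together the 2 features held 97.6% of the component's reads in control.

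TRINITY_DN30924_c0_g3, of 1120 bases, had the third lowest ratio, 0.160. Its levels were 14.7, 12.7 and 19.0 RPKM in control and 2.31, 2.71 and 2.41 RPKM in aluminium libraries. The group means were 15.5 ± 3.22 and 2.48 ± 0.209 RPKM (SD, n = 3 each). Relative to the mean, the SD was 20.8% in control and 8.45% in aluminium libraries.

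The 8 features at least 4-fold lower included another of low read number. TRINITY_DN10935_c0_g1, a short feature of 272 bases singled out after its values were seen, was at 3.91, 9.08 and 2.03 RPKM in control and 0.985, 0.209 and 1.28 RPKM in aluminium libraries. It rested on 18 to 82 control reads and 2 to 12 aluminium reads per library, and control library 2 was again the highest. Without that library its log2 ratio went from -2.60 to -1.85, and it met neither the rule, its control mean being under 5 RPKM, nor the 4-fold mark. The last 4 had ratios of 0.224 to 0.247, control means of 9.39 to 16.3 RPKM and lengths of 720 to 933 bases.

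The 3 most abundant members had ratios between 0.40 and 0.45, as did 78 of the 175 members. TRINITY_DN20515_c2_g1, of 405 bases, was the highest, at 356, 341 and 314 RPKM in control and 143, 166 and 140.1 RPKM in aluminium libraries. Its ratio, 0.444, was among the highest that the rule admits, and its means were 337 ± 21.3 and 149.7 ± 14.0 RPKM (SD, n = 3 each). TRINITY_DN26444_c0_g2, of 774 bases, measured 209, 249 and 223 RPKM against 94.5, 104 and 87.0 RPKM, a ratio of 0.419. TRINITY_DN22745_c0_g1, of 709 bases, measured 134, 147 and 142 RPKM against 53.9, 57.5 and 60.7 RPKM, a ratio of 0.407. Among the treated libraries, aluminium library 2 was the highest in TRINITY_DN20515_c2_g1 and TRINITY_DN26444_c0_g2 and aluminium library 3 in TRINITY_DN22745_c0_g1.

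Over the 15 members of 50 RPKM or more the ratio ran from 0.270 to 0.445 with a median of 0.417. The 2 lowest of these were features with the same DN number in different components, found after their values were seen. TRINITY_DN16844_c0_g1 had means of 64.8 ± 3.05 and 17.5 ± 1.55 RPKM, and TRINITY_DN16844_c1_g1 had means of 106 ± 8.62 and 29.4 ± 2.69 RPKM (SD, n = 3 each, control first). Their ratios, 0.270 and 0.277, lay close together, and the next lowest among the 15 was 0.387.

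**Figure D2:**
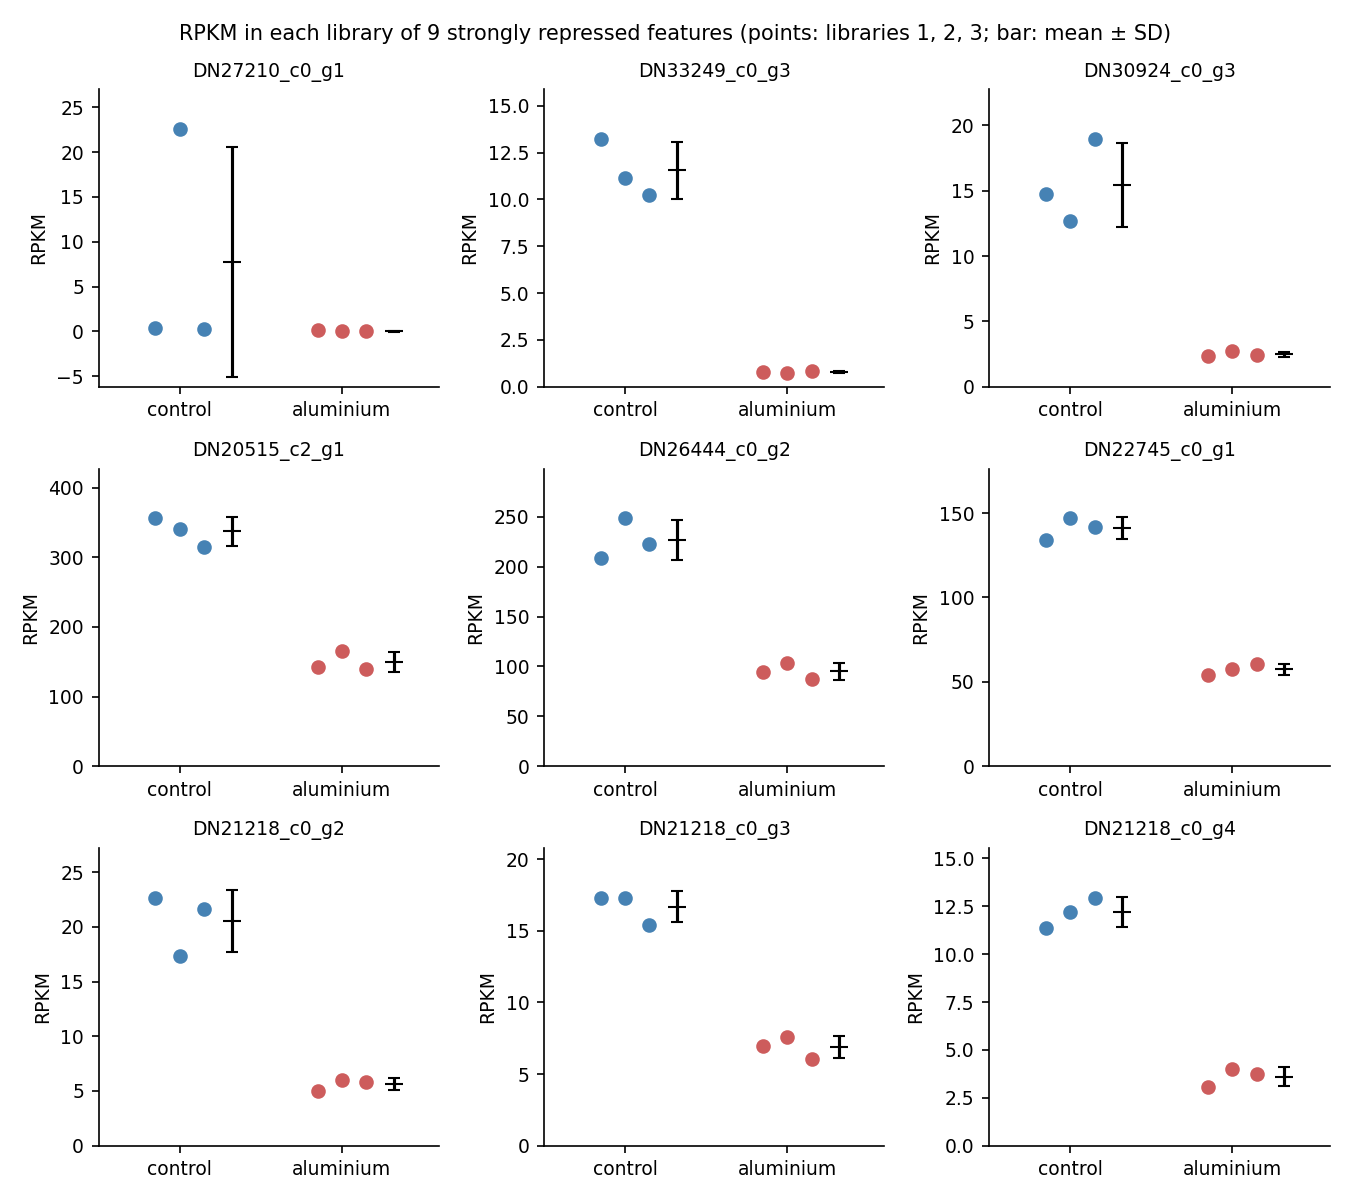
RPKM (vertical axes, each with its own scale) in the 3 control (blue) and 3 aluminium libraries (red) of 9 strongly repressed features, with the mean ± SD in black. From the top row down are the lowest ratios, the highest control means and the component with the most members. DN27210_c0_g1 shows 1 control library at 22.5 RPKM with all others under 1 RPKM. That the groups do not overlap in any panel follows from the rule.

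The spread between libraries of a group was read as the coefficient of variation, the SD over the mean. The median coefficient of variation was 8.78% in control and 15.7% in aluminium libraries, against 5.97 and 7.27% over the 22703 features. The members also had fewer reads, a median of 235 per control library and 95.7 per aluminium library, against 561 and 568, and their lower read numbers go with a larger counting error. The rule asks for low aluminium values, so the low read number in aluminium libraries is partly fixed by the choice. How much of the spread comes from counting was not tested. Control libraries lay over 2 times apart in 3 of the 175 members and aluminium libraries in 13.

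Aluminium library 2 was the least reduced of the treated libraries. It was the highest of the 3 in 87 of the 175 members (49.7%), against 46 for aluminium library 1 and 42 for aluminium library 3. Over the 22703 features it was the highest in 36.1%. As a ratio to the control mean, the median member stood at 0.377, 0.398 and 0.358 in aluminium libraries 1, 2 and 3, where the median of the 22703 features stood at 0.943, 0.930 and 0.945. Relative to the mean of libraries 1 and 3, library 2 was at a median of 1.10 in the members and 0.997 over the 22703 features.

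In the 565 features that met the mirrored rule the same quotient had a median of 0.992, and library 2 was the lowest of the 3 in 209 (37.0%), against 38.5% of the features at that level. The order of the aluminium libraries was not part of the rule. Resting on 1 library, it has no test.

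Since the 6 libraries both chose and described the members, the rule was also applied to 4 libraries at a time, leaving out 1 control and 1 aluminium library, and the left-out libraries were then read. The 9 choices gave 189 to 246 features, of which 145 to 155 were among the 175. In the choosing libraries their median ratio was 0.382 to 0.399. In the left-out libraries it was 0.411 to 0.480, while all features of 5 RPKM or more had medians of 0.925 to 0.956 there. The left-out ratio was again at most 0.45 in 43.6 to 63.0% of the chosen features, against 0.790 to 1.23% of the others. From 1 to 21 of the chosen features were not lower in the left-out aluminium library.

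The 3 choices that left out aluminium library 2 had the highest left-out medians, 0.469, 0.480 and 0.469. The 6 others had 0.411 to 0.428. Features chosen for a low ratio tend to fall less in libraries that took no part in the choice, so that difference is no result. The choices without aluminium library 2 gave 241 to 246 features and the others 189 to 218. Their medians therefore describe different sets of features. The left-out ratios are values of 1 library against 1, with no test.

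**Figure D3:**
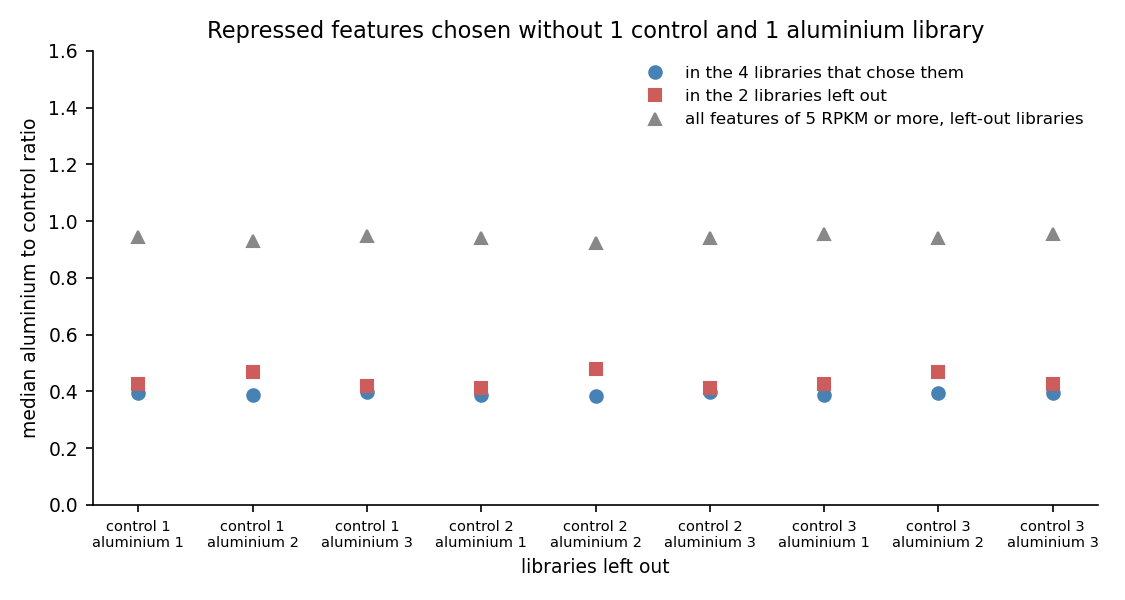
Median aluminium to control ratio (vertical axis) of features chosen by the rule from 4 libraries, in those libraries (blue) and in the 2 left out (red), for each of the 9 pairs left out (horizontal axis). Grey triangles give all features of 5 RPKM or more in the left-out pair, near 0.94, and the red squares are highest, at 0.469 to 0.480, where aluminium library 2 was left out.

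Leaving out 1 library at a time, the rule gave 185 to 233 features. The highest number came without aluminium library 2 and held 161 of the 175. Of the members, 111 were chosen in all 6 of these cases, so 64 depended on at least 1 library.

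Feature length played no part in the rule, and the repressed features were mostly short. The median over members was 741 bases (quartiles 452 and 1018, longest 2977), against 1219 bases for the 22703 features of that level. Of features under 400 bases, 1.50% were repressed by the rule (35 of 2340). The share was 1.40% from 400 bases (65 of 4630), 0.847% from 800 bases (58 of 6850) and 0.238% from 1500 to under 3000 bases (17 of 7141). None of 1742 features of 3000 bases or more met the rule.

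Short features have fewer reads and a wider spread between control libraries, whose median coefficient of variation was 11.8% in the shortest class and 3.50% in the longest. Among features that averaged at least 500 reads per control library, the share was 0.476% in the shortest class, on 1 feature of 210. It was then 1.15, 0.542, 0.212 and 0% with growing length. The median coefficient of variation lay between 3.50 and 4.98% in all these classes. A shorter feature needs a higher RPKM to reach 500 reads, so the classes also differ in level. The mirrored rule gave shares that fell with length too, from 4.14 to 0.557%. By level, the share of repressed features was 1.08% at 5 to under 7.5 RPKM in control and 0.613% at 50 RPKM or more, with the lowest share, 0.514%, at 20 to under 50 RPKM. Assembled features need not be full transcripts, and a length says nothing of the gene.

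**Figure D4:**
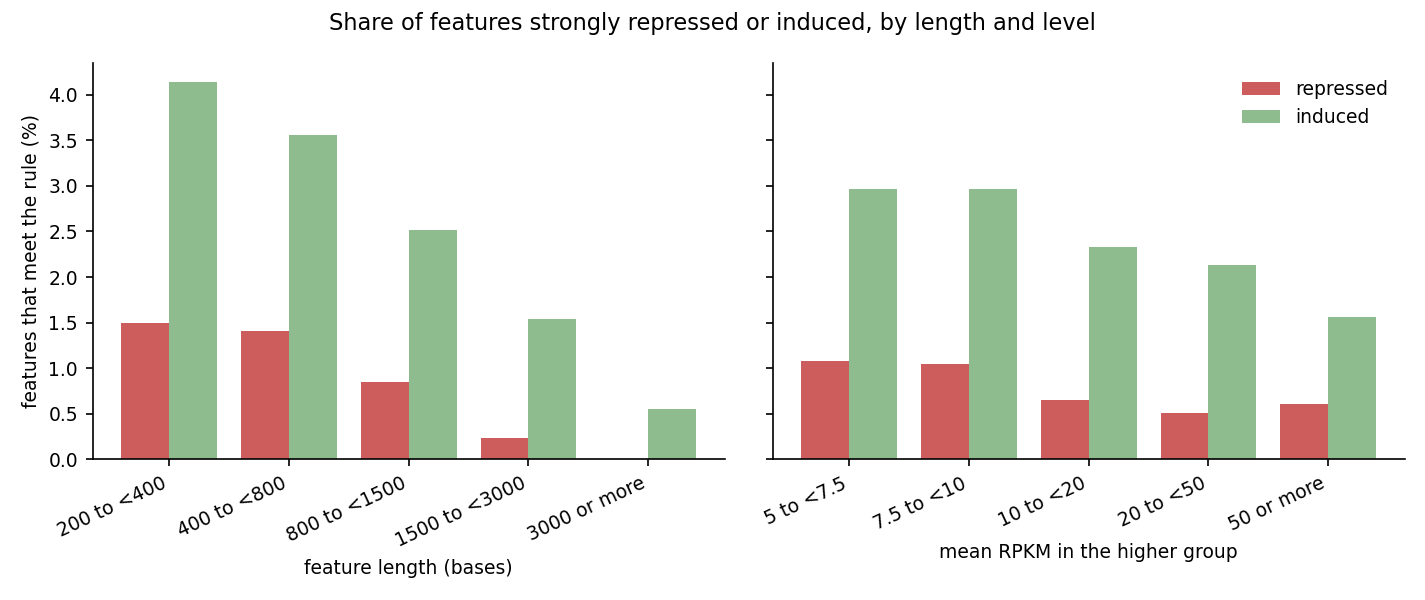
Percentage of features that met the rule for strong repression (red) or its mirror for strong induction (green), by feature length in bases (left) and by mean RPKM in the higher group (right). Both shares fall from the shortest class, 1.50 and 4.14%, to the longest, 0 and 0.557%.

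The 175 features came from 162 components. Of these, 150 held 1 member, 11 held 2 and 1 held 3. Where a component held several members, the lowest and highest ratio differed by a median of 0.0563 and were less than 0.1 apart in 9 of the 12 components. The rule itself holds ratios close together, with quartiles of 0.339 and 0.420 over all members, so nothing is read from this nearness. The control means of such members were 1.25 to 38.7 times apart. Features of a component can share reads, so their values are not independent of each other.

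The component with the most members was DN21218_c0, of 4 features. TRINITY_DN21218_c0_g2, of 1184 bases, gave 22.7, 17.3 and 21.6 RPKM in control and 4.98, 6.02 and 5.83 RPKM in aluminium libraries, a ratio of 0.273. TRINITY_DN21218_c0_g3, of 922 bases, gave 17.3, 17.3 and 15.4 against 6.94, 7.58 and 6.07 RPKM, a ratio of 0.412. TRINITY_DN21218_c0_g4, of 1025 bases, gave 11.4, 12.2 and 13.0 against 3.08, 3.99 and 3.76 RPKM, a ratio of 0.296. Aluminium library 1 was the lowest of the treated libraries in 2 of the 3. That the groups do not overlap is a condition of the rule in these and all other members. The fourth feature, TRINITY_DN21218_c0_g1, held most of the component's reads and had a log2 change of -0.06 (SE 0.06, limma adjusted p = 0.45). The members' part of the component's reads went from 19.4% in control to 7.43% in aluminium libraries.

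The other features of these components were not chosen by the rule, and their changes were read from a test of the whole table. limma compared log2(RPKM + 0.5) between the groups in the 50679 features that reached 1 RPKM in 3 or more libraries and found 35.4% different at an adjusted p under 0.05, of which 17.3% of all tested features were lower and 18.1% higher in aluminium. Of the members, 174 were in this test and 173 were lower, which the rule all but fixes. The one that was not, TRINITY_DN25048_c0_g3, had aluminium libraries at 4.88, 0.581 and 3.05 RPKM against control libraries at 5.87, 8.45 and 5.39 RPKM. Its log2 ratio, -1.21 with all libraries, was -1.86 without aluminium library 1 and -0.73 without aluminium library 2.

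Among the component mates of the members, falls outnumbered rises. There were 395 mates in 120 components, and 241 were tested. Of these 81 fell (33.6%, beside 17.3% of all tested features), 29 rose (12.0%, beside 18.1%) and 131 did not pass the test. The difference between these shares was not tested. Their median log2 change was -0.23, that of all tested features 0.01, and 66.8% had a change below 0 against 49.3%. Among mates of 5 RPKM or more in control, 49 of 97 fell (50.5%) and 16 rose, where 31.6 and 20.7% of all tested features of that level did. Among mates under 5 RPKM, 32 of 144 fell (22.2%) and 13 rose, beside 5.51 and 15.9%. The part of shared reads in these counts was not tested.

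**Figure D5:**
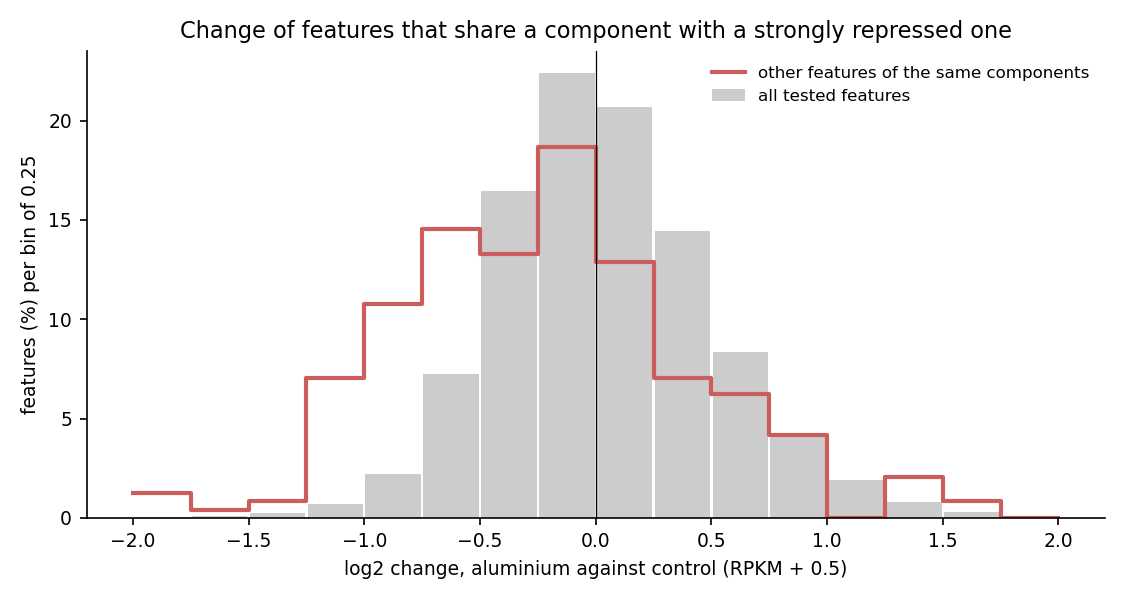
Percentage of features in each bin of log2 change (horizontal axis, aluminium against control, from -2 to 2) for the 241 tested features that share a component with a member (red line) and for all 50679 tested features (grey). The red line lies above the grey bars left of -0.5 and below them from -0.5 to 0.75, with medians of -0.23 and 0.01.

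Counted by component, 108 had at least 1 tested mate. In 46 of these at least 1 mate fell and none rose, in 10 at least 1 rose and none fell, in 12 mates went both ways, and in 40 no mate passed the test. No such counts were made for components without members, so whether these numbers are unusual was not tested. In the abundant component of TRINITY_DN22745_c0_g1 the single mate fell as well (log2 change -1.07, SE 0.08, limma adjusted p = 5.44e-05), and both tested mates did in that of TRINITY_DN26444_c0_g2 (-0.87 and -1.10, SE 0.07 and 0.10, limma adjusted p = 6.89e-05 and 0.000112). Summed over all features of a component, reads per 1000000 of the library total in aluminium were at most 0.45 times those in control in 29 of the 120 components with mates and were higher than in control in 8. The median of this summed ratio was 0.585. Members held a median of 45.7% of their component's reads in control and 28.1% in aluminium libraries. The sums include the members, which the rule chose for a low ratio. Both the summed ratio and the members' part are therefore partly fixed by the choice. The reads of the mates alone had a median ratio of 0.830 over 119 components.

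A mate rose in 22 components, again with no count from components without members beside it. In 1 of these the member was TRINITY_DN25048_c0_g3, which did not pass the test itself. The most abundant member beside a rising mate was TRINITY_DN36676_c0_g2, of 2140 bases, at 122, 139 and 134 RPKM in control and 58.4, 44.6 and 64.8 RPKM in aluminium libraries. Beside it TRINITY_DN36676_c0_g1, of 589 bases, went from 120.3, 113 and 118 to 172, 191 and 177 RPKM (log2 change 0.62, SE 0.05, limma adjusted p = 6.71e-05). These 2 features started at similar levels per length and ended over 3 times apart. The other tested mate, TRINITY_DN36676_c0_g3, fell (log2 change -1.73, SE 0.19, limma adjusted p = 0.000266). Together with the remaining features, the component's reads fell to 0.641 of the control value.

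TRINITY_DN38190_c2_g1, of 741 bases, was next, at 88.6, 86.9 and 85.7 RPKM in control and 36.1, 39.8 and 38.0 RPKM in aluminium libraries. Both of its mates rose. TRINITY_DN38190_c2_g3 went from 10.7 ± 0.109 to 18.6 ± 0.867 RPKM and TRINITY_DN38190_c2_g2 from 7.60 ± 0.671 to 22.2 ± 0.889 RPKM (SD, n = 3 each), with log2 changes of 0.77 (SE 0.07, limma adjusted p = 8.51e-05) and 1.49 (SE 0.08, limma adjusted p = 1.50e-05). The member's part of the reads went from 70.7 to 34.7%, and the component as a whole stood at 0.889 of its control reads.

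Among the 8 features at least 4-fold lower, 2 had rising mates, a pattern noticed after the values were seen. Those 2 were the only ones of the 8 with any tested mate. Beside TRINITY_DN30924_c0_g3, TRINITY_DN30924_c0_g2 rose from 4.94 ± 0.402 to 13.0 ± 2.29 RPKM (SD, n = 3 each; log2 change 1.30, SE 0.13, limma adjusted p = 0.000203). The reads of this component were 0.997 of the control value in sum, and the member's part went from 54.1 to 8.70%. TRINITY_DN31384_c2_g5, of 794 bases, fell from 16.8, 15.6 and 16.4 to 4.80, 4.36 and 2.88 RPKM in a component of 6 tested features. Of its 5 mates 4 rose, with log2 changes of 0.61 to 0.93, and 1 fell, with a log2 change of -0.89 (SE 0.20, limma adjusted p = 0.0090). The component's summed reads stood at 1.34 times the control value.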

How the data were processed

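The authors deposited 1 table of RPKM values for 108674 features in 6 libraries. The submitters' processing notes name Bowtie2 2.2.3, with no role. For the assembler, counter and filters details are not given in these sources. RPKM corrects for library total and length, not for composition. Library totals, lengths and reads were worked back from the deposited RPKM as the smallest whole numbers that fit, with lengths over 200 bases. All features came out whole within 0.0001 reads, and the reads summed to 99.47 to 99.49% of the library totals. In simulated reads 99.4% of lengths came back exact. A smallest fit can fall short of the true length. Intervals on reads cover counting error only. The test was limma 3.58.1 under R 4.3.3 (two-sided, empirical Bayes with a trend on abundance; p adjusted by Benjamini-Hochberg over all tested features, threshold 0.05) on log2(RPKM + 0.5) in features that reached 1 RPKM in 3 or more libraries, and it was tested on simulated data. This scale understates changes of weak features. As nothing says that libraries came from separate plants, p-values rest on a spread that may be technical.

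The members and the tests were chosen with earlier results of these data known. Named features were the 3 lowest ratios, the 3 highest control means, the members of the component with most members, and the 2 most abundant members beside a rising mate; others are marked as chosen after their values were seen. Alternatives changed scaling, thresholds, pseudocount, filter, component definition, replicate block and the libraries used.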

Additional observations from a re-analysis of the deposited data

How the results depend on the processing

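The number of repressed features depends on where its thresholds lie, by construction: it was 97 at a ratio of 0.40 and 319 at 0.50, and 815 with a control minimum of 1 RPKM and 85 with 10 RPKM. Median-of-ratios scaling gave 178 features, quantile normalization 185 and a pseudocount of 0.5 in the ratio 136. Leaving out 1 library gave 185 to 233 features and 10 to 20 components with at least 2 members, 20 of them without aluminium library 2, against 12 with all libraries; the cause was not tested. Of the component mates, 64 to 79 fell and 24 to 29 rose without 1 library. With a filter of 5 RPKM, which tests 99 mates, 53 fell (53.5%) and 20 rose (20.2%). With the DN number alone as the component, 388 mates were tested, of which 107 fell and 57 rose. No mate was called in opposite directions in any of the 14 other fits. Libraries with the same replicate number did not deviate together (correlations of -0.15, -0.11 and -0.02). With 3 libraries a group, these values cannot settle whether the numbers mark a pairing. With the replicate block, 14753 features changed in the whole table, against 17939, and 71 mates fell and 30 rose. Aluminium library 2 was the highest in 100 members with median-of-ratios scaling and in 102 with quantile normalization, against 87. Without control library 2 the log2 ratio of TRINITY_DN27210_c0_g1 went from -7.75 to -3.04, from 16 against 3 reads. The settings added after the data were seen were median-of-ratios scaling of the left-out libraries, fits of the mates without a filter and with voom, and all settings for single members. Members with few reads limit the precision: 4 had under 50 reads over the 3 aluminium libraries.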
